A study of Homo sapiens with 148 samples.

Results

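The 7 genes described here are the LIN28 genes LIN28A and LIN28B, the IGF2BP genes IGF2BP1, IGF2BP2 and IGF2BP3, and the HMGA genes HMGA1 and HMGA2. They were taken by name from a table of 49085 gene names, in which each of the 7 had 1 entry. The table holds RNA-seq of H9 cells, an established line of human embryonic stem cells (hESCs), and of cells derived from them on the way to insulin-producing organoids. The stages were hESCs, definitive endoderm (DE, day 4), primitive gut tube (PGT, day 7), pancreatic progenitors (PP, day 14) and stem cell-derived β-cell (SC-β) organoids at day 35. All were wild-type cells of this single line, kept as hESCs on a coated surface and differentiated as spheroids with added factors such as Activin A, CHIR99021, KGF, retinoic acid and thyroid hormone T3. A further stage, PH, has no definition or day in the sources used here, so it is given apart from the ordered series.

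The 7 genes are called oncofetal because they are active in early embryos and in many tumours and, with exceptions such as IGF2BP2, low in most adult tissues. LIN28A and LIN28B are RNA-binding proteins that block the maturation of let-7, a family of microRNAs that becomes abundant as cells differentiate. Let-7 in turn represses messenger RNAs that carry its seed match in their 3′ UTR, with LIN28B, HMGA2 and the IGF2BP genes among the best known. The IGF2BP proteins bind and stabilise messenger RNAs, IGF2 among them, and the HMGA proteins bind the minor groove of AT-rich DNA and change how chromatin is packed.

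The sequences compared across the families are the let-7 seed and its matches in the 7 genes. RefSeq (GRCh38.p14) holds 12 let-7 and miR-98 entries that give 9 distinct mature 5p sequences, and these share 1 seed at bases 2 to 8, shown in capitals for 3 of them.
let-7a-5p: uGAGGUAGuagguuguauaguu
let-7b-5p: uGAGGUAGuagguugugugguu
let-7c-5p: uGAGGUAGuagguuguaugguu

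The complement of that seed, CTACCTC, was searched in the annotated 3′ UTR of each gene's canonical GENCODE transcript (version 44, GRCh38, the same build as hg38), on the transcript strand only. All 7 genes held at least 1 match, against 9.77% of the 19535 protein-coding genes with a 3′ UTR. LIN28B, IGF2BP1 and HMGA2 each held 4 matches, a number reached by 0.0614% of genes. The other genes held 1 each. The 3′ UTR of IGF2BP1 was the longest of the 7, at 6701 bases, and that of HMGA1 the shortest, at 1347 bases, and the share of genes of similar 3′ UTR length with at least 1 match went from 8.82% at the length of HMGA1 to 32.8% at that of IGF2BP1. Among genes with a 3′ UTR of similar length, 4 or more matches stood in 0.181% for LIN28B, 0.504% for IGF2BP1 and 0.0817% for HMGA2. A longer match, CTACCTCA, which pairs with the seed and has A opposite base 1, was present in every one of the 7 genes except HMGA1, and in 3.75% of all genes. LIN28B held 2 of the longer matches, IGF2BP1 held 3 and HMGA2 held 1. A match is a run of letters in this window, not a measured site, and the 7 genes include known let-7 targets.

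The first match of each gene and the other 3 of HMGA2 are printed with their surroundings, with the 7 matched bases in capitals and all windows 5′ to 3′ on the gene's strand. LIN28A, LIN28B, IGF2BP1, HMGA1 and HMGA2 are on the forward strand, and IGF2BP2 and IGF2BP3 on the reverse strand.
LIN28A (chr1:26427348-26427377): gcacagcctattgaaCTACCTCatttttgc
LIN28B (chr6:105078812-105078841): acccggttgcaaagtCTACCTCatgcaagt
IGF2BP1 (chr17:49051061-49051090): tgtgtgcgaagtaaaCTACCTCaaggtatg
IGF2BP2 (chr3:185644213-185644242): aacacacagaagaagCTACCTCaggtgttt
IGF2BP3 (chr7:23311788-23311817): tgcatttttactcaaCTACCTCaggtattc
HMGA1 (chr6:34245829-34245858): tcctctgttcacaaaCTACCTCtggacagt
HMGA2, nearest the stop codon (chr12:65963298-65963327): gccaacgttcgatttCTACCTCagcagcag
HMGA2, next (chr12:65964533-65964562): ccccactactcaataCTACCTCtgaatgtt
HMGA2, next again (chr12:65964945-65964974): ttgacttgcaaagacCTACCTCcagacttc
HMGA2, farthest (chr12:65965798-65965827): aatcaaaacacactaCTACCTCttaagtcc

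**Figure D1:**
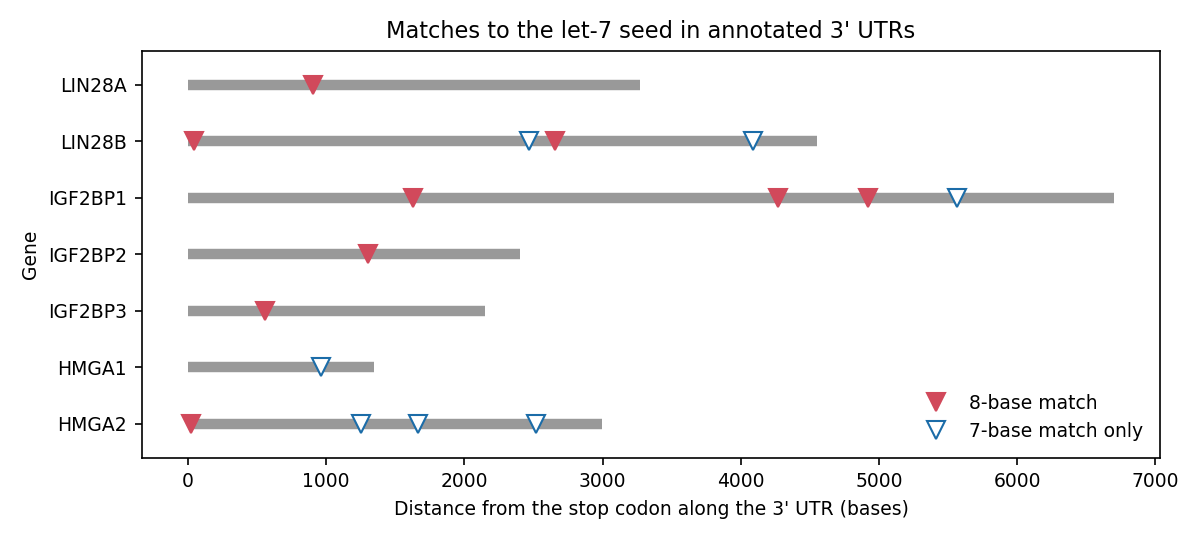
Position of let-7 seed matches along the annotated 3′ UTR of each gene, in bases from the stop codon; grey bars are the 3′ UTRs to scale, filled triangles are matches of 8 bases and open triangles matches of 7 bases only. The first matches of LIN28B and HMGA2 stand 44 and 21 bases after the stop codon, and 4 matches each are seen in LIN28B, IGF2BP1 and HMGA2.

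Expression is given as TPM, which divides reads by transcript length, scales each sample to one total and so allows levels of different genes to be compared within a stage. The deposited table has 1 column per stage, the authors' mean over 2 samples. Neither an error nor a test can therefore be given for any value, and where neighbouring stages are close it cannot be said whether they differ beyond the spread between samples. TPM keeps no read counts, so the depth behind a value is unknown and values below 1 TPM have no known precision. Structural RNAs took between 31.8% of the TPM total (DE) and 50.9% (PH), and the share left for other genes moves with this. The samples are bulk cultures, in which fewer cells of a type cannot be told apart from less RNA per cell.

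LIN28A (ENSG00000131914.11, chr1:26410817-26429728) had the highest TPM of the 7 genes in the first stages. Its mean TPM was 724 (hESCs), 772 (DE), 516 (PGT), 169 (PP) and 27.5 (SC-β organoids), and the table lists it at 0.0162 TPM in PH. DE and hESCs were within 1.07-fold of each other, an order that turned under another scaling of the stages (log2 ratio -0.39), and PGT, PP, SC-β organoids and PH followed. In DE it ranked 93 among all names, and in SC-β organoids 5052. On the log2((TPM + 1)/(TPM in hESCs + 1)) scale it was at 0.09 (DE), -0.49 (PGT), -2.09 (PP) and -4.67 (SC-β organoids). The ratio in PH, -9.48, depends on the added 1 TPM and was -12.61 with 0.1 TPM added.

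LIN28B (ENSG00000187772.8, chr6:104936616-105083332), the paralog, took another course. Its mean TPM was 56.3 (hESCs), 64.2 (DE), 52.7 (PGT), 75.1 (PP), 35.2 (SC-β organoids) and 7.07 (PH). Leaving PH aside, its highest level was 2.13-fold its lowest, against 28.0-fold for LIN28A. LIN28B was highest in PP, the stage where LIN28A stood 4.28-fold below its hESC level. LIN28A therefore made up 92.8% of the summed LIN28 TPM in hESCs, 92.3% at the DE stage, 90.7% in PGT, 69.3% in PP but 43.9% in SC-β organoids, where LIN28B was the more abundant of the pair. In PH, LIN28A made up 0.228%.

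**Figure D2:**
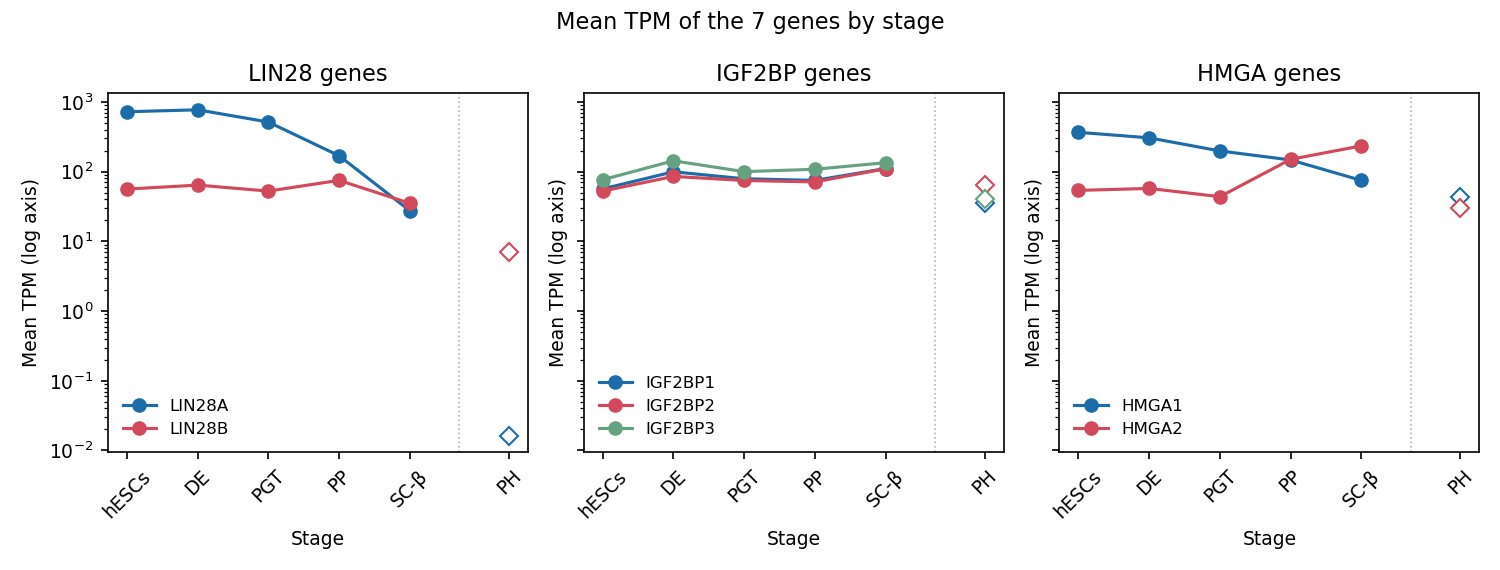
Mean TPM (log axis) of the LIN28, IGF2BP and HMGA genes by stage; filled circles joined by lines are the ordered stages, open diamonds are PH, and each point is the authors' mean of 2 samples, without an error. LIN28A goes from 724 TPM (hESCs) to 27.5 TPM (SC-β organoids), the IGF2BP genes stay between 52.6 and 143 TPM outside PH, and HMGA1 and HMGA2 cross at PP.

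The HMGA genes went in opposite directions from PGT to SC-β organoids. HMGA1 (ENSG00000137309.21, chr6:34236873-34246231) had mean TPM of 367 (hESCs), 306 (DE), 198 (PGT), 147 (PP) and 75.0 (SC-β organoids), each lower than the stage before, and of 43.1 in PH. Its log2 ratio to hESCs went from -0.26 in DE to -1.31 in PP and -2.28 in SC-β organoids. HMGA2 (ENSG00000149948.14, chr12:65824460-65966291) was at 53.9 TPM (hESCs), 57.5 (DE) and 43.7 (PGT), then at 150.3 (PP) and 235 (SC-β organoids), and at 29.6 in PH. Its values in hESCs, DE and PGT lay within 1.31-fold, while the value in PP was 3.44-fold that in PGT. The log2 ratio of HMGA2 to hESCs was 1.46 in PP and 2.1 in SC-β organoids. HMGA2 made up 12.8% of the summed HMGA TPM in hESCs, 15.8% (DE), 18.1% (PGT), 50.5% (PP) and 75.8% (SC-β organoids). In PH the share was 40.8%, with both genes at their lowest levels of the 6 stages.

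Some reads of HMGA1 cannot be assigned to it alone. Of the 50-base windows of its canonical transcript, 9.14% also occur in transcripts of other genes, the largest part with the processed copy HMGA1P1 (2.94%). HMGA1P3, another copy, was listed at 17.0 TPM in hESCs and 4.10 TPM in SC-β organoids, and HMGA1P8 at 13.7 and 3.74 TPM, both lower where HMGA1 was lower. The share of such windows was 9.42% for IGF2BP3, 7.35% for IGF2BP2 and between 0 and 2.06% for the other 4 genes, and no window was shared between any of the 7. Whether strand was used in counting is not given in the sources used here, so antisense neighbours may share reads. RPSAP52, antisense to HMGA2, was at 1.82 TPM in hESCs, 5.34 in PP and 13.4 in SC-β organoids. IGF2BP2-AS1 was at 0.649 TPM in hESCs and 14.3 in SC-β organoids. MALSU1, antisense to IGF2BP3, was at 18.1 TPM in hESCs and 24.8 in SC-β organoids. An entry of the structural RNA Metazoa_SRP lies antisense to IGF2BP1. The part of these and other overlapping entries in the values of the 7 genes was not tested.

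The 3 IGF2BP genes kept close to each other and moved least along the ordered stages. IGF2BP1 (ENSG00000159217.10, chr17:48997385-49056145) had mean TPM of 56.6 (hESCs), 99.6 (DE), 79.1 (PGT), 75.0 (PP), 110.8 (SC-β organoids) and 35.4 (PH). IGF2BP2 (ENSG00000073792.16, chr3:185643130-185825042), the member of the family that adult tissues keep, was at 52.6, 85.5, 74.8, 71.3, 110.1 and 64.1 TPM in the same stages. IGF2BP3 (ENSG00000136231.14, chr7:23310209-23470491) was at 76.6, 143, 100.1, 108, 135 and 41.1 TPM. All 3 were lowest in hESCs among the ordered stages, and their highest level there was 1.87-fold (IGF2BP3) to 2.09-fold (IGF2BP2) the lowest. Names at large were also higher than in hESCs. The 3 log2 ratios were 0.69 to 0.89 in DE and 0.80 to 1.05 in SC-β organoids, beside medians of 0.58 and 0.83 for all names. After median-ratio rescaling the 3 ratios were 0.21 to 0.42 in DE and 0.29 to 0.54 in SC-β organoids. IGF2BP1 and IGF2BP3 had their lowest level of all in PH, whereas IGF2BP2 in PH was above its hESC value, with a log2 ratio of 0.28 against -0.66 for IGF2BP1 and -0.88 for IGF2BP3. IGF2BP3 had the largest share of the family's TPM at every ordered stage: 41.2% (hESCs), 43.6% (DE), 39.4% (PGT), 42.5% (PP) and 37.9% (SC-β organoids). In PH the largest share was that of IGF2BP2, at 45.6% against 28.3% in hESCs.

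**Figure D3:**
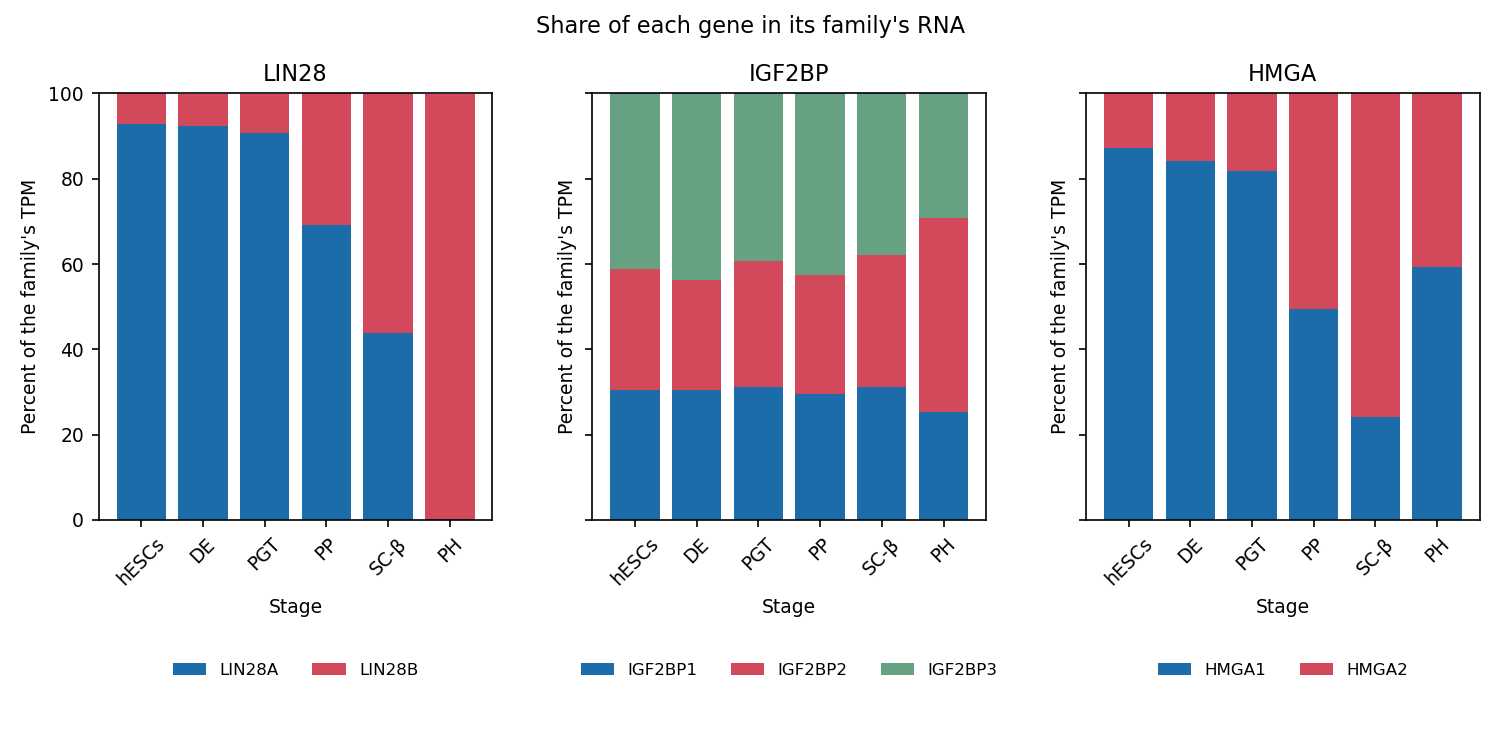
Percent of each family's summed TPM that came from each gene, by stage, as stacked bars from 0 to 100%. LIN28A goes from 92.8% in hESCs to 43.9% in SC-β organoids and HMGA2 from 12.8% to 75.8%, while the shares of the IGF2BP genes hardly move before PH.

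A gene was counted as different from 2-fold on the log2 scale with 1 TPM added, beside the same count over all names at 1 TPM or more in either stage. Against hESCs, none of the 7 genes was 2-fold higher or lower in DE, where 28.2% of 22514 names were higher and 5.55% lower. None was 2-fold apart in PGT either, against 23.4% higher and 10% lower of all names. In PP, 1 of the 7 was higher (HMGA2) and 2 were lower (LIN28A and HMGA1), against 18.9% and 9.63%. In SC-β organoids 2 were higher (HMGA2 and IGF2BP2) and 2 lower (LIN28A and HMGA1), against 42.4% and 7.08%. IGF2BP2 stood just past the threshold there, at 1.05 (0.54 after median-ratio rescaling of the stages, where it was no longer counted), and IGF2BP1 just short of it, at 0.96. In PH no member was higher and 3 were lower (LIN28A, LIN28B and HMGA1), against 27.3% and 18.9%. The median log2 ratio of the 7 genes to hESCs was 0.19 (DE), -0.09 (PGT), 0.41 (PP), 0.80 (SC-β organoids) and -0.88 (PH), beside 0.58, 0.41, 0.31, 0.83 and 0.28 for all names tested. These 5 comparisons share the hESC column.

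**Figure D4:**
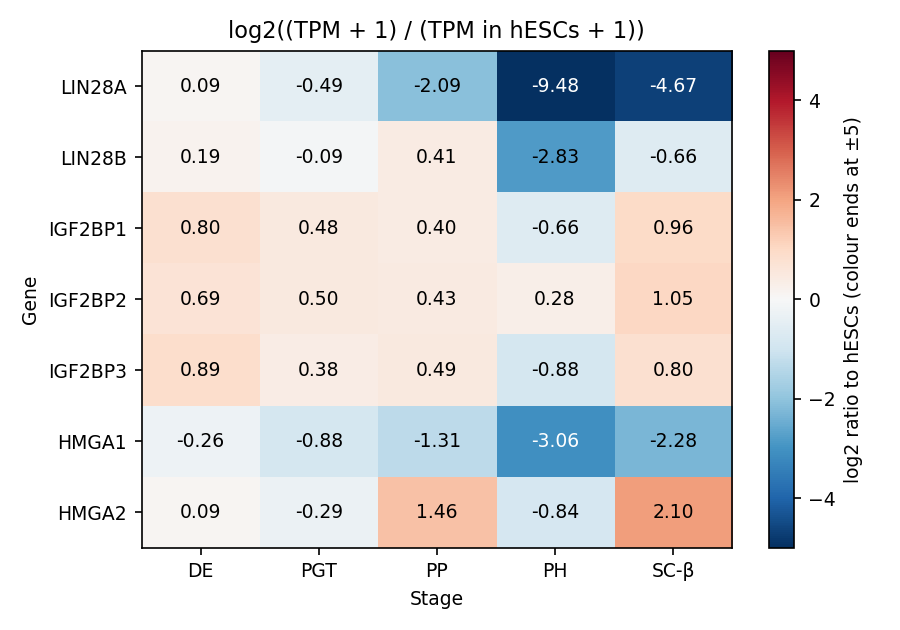
Log2 ratio to hESCs (1 TPM added to each mean) of each gene in each stage, with the value printed in its cell and the colour running from blue (lower) to red (higher) and ending at 5 in either direction. Rows for LIN28A and HMGA1 turn blue from PGT to SC-β organoids, that for HMGA2 turns red in PP and SC-β organoids, and all rows but IGF2BP2 are below 0 in PH.

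Between successive stages the changes fell at different steps for different genes. From DE to PGT all 7 were lower, by less than 2-fold each (log2 ratios from -0.62 to -0.19, all names at a median of -0.19), so the count was 0 in each direction, against 4.94% higher and 10.6% lower. In PP against PGT, HMGA2 was higher (1.76) and LIN28A lower (-1.60), against 6.3% and 7.46% of all names. From PP to SC-β organoids none was 2-fold higher and LIN28A (-2.58) and LIN28B (-1.07) were lower, against 20.7% and 1.84%. HMGA1 was at -0.97 in that step, just short of 2-fold, and HMGA2 at 0.64. Set against PP, the column before it in the table, PH had 0 of the 7 genes 2-fold higher and 6 lower, beside 11.5% and 12.8% of all names. IGF2BP2 was the exception, at -0.15, or at 0.07 after median-ratio rescaling, which also took IGF2BP1 from -1.06 to -0.84 and so out of the count. The median of the 7 genes in that comparison was -1.75, and that of all names -0.10.

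Genes that act with LIN28 on let-7 were compared over the same stages. Of 14 genes of let-7 processing and control, 6 were at least 2-fold higher and 2 lower in SC-β organoids than in hESCs, beside 42.4% and 7.08% of all names, so that the share of higher genes was near the background. The lower ones were L1TD1, an RNA-binding protein of pluripotent cells (413 TPM in hESCs, then 38.1 in PGT and 8.48 in SC-β organoids), and TRIM71, a stem cell protein and known let-7 target (134, 99.2 and 27.5 TPM). Both were lower still in PH, at 4.56 and 1.72 TPM. The 3′ UTR of TRIM71 held 6 seed matches, more than any of the 7 genes. The highest ratios were those of MSI1 (2.27), an RNA-binding protein of neural stem cells, and TUT4 (1.90, listed under its older symbol ZCCHC11), the enzyme that LIN28A recruits to add uridines to precursor let-7. TUT4 was at 29.3 TPM in hESCs and reached 112 TPM in SC-β organoids. The median of the 14 genes was 0.90, beside 0.83 for all names.

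GENCODE places the let-7 and miR-98 hairpins in 9 genes on the same strand, of which 5 were in the table. Of these, 3 were below 1 TPM in hESCs, DE and PGT, the stages where LIN28A was highest. Such low levels are common, as 16784 (hESCs), 21619 (DE) and 19675 (PGT) of all 49085 names reached 1 TPM. Mature microRNAs are too short for this assay, so only the host transcripts are described. MIR99AHG, host of let-7c, had mean TPM of 0.0564 (hESCs), 0.0124 (DE), 0.738 (PGT), 12.0 (PP), 61.9 (SC-β organoids) and 97.6 (PH). MIR100HG, host of a let-7a hairpin, was listed at 0 in DE and had 0.574 TPM (hESCs), 0.436 (PGT), 0.704 (PP), 5.07 (SC-β organoids) and 21.7 (PH). MIRLET7BHG, host of let-7b, was below 1 TPM up to PP and reached 1.47 TPM (SC-β organoids) and 7.48 TPM (PH). All 3 had their highest level in PH, the stage where both LIN28 genes were lowest, and their next highest in SC-β organoids. HUWE1, a ubiquitin ligase gene whose transcript spans let-7f and miR-98 hairpins, was at 78.1 TPM in hESCs, 136 in SC-β organoids and 91.9 in PH, and did not share that order. Nor did WDR82, a histone methyltransferase subunit gene that spans let-7g, at 34.1 TPM (hESCs), 52.5 (SC-β organoids) and 52.5 (PH). MIRLET7DHG, a transcript named for let-7d but not among the 9 GENCODE hosts, did not exceed 0.420 TPM at any stage.

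**Figure D5:**
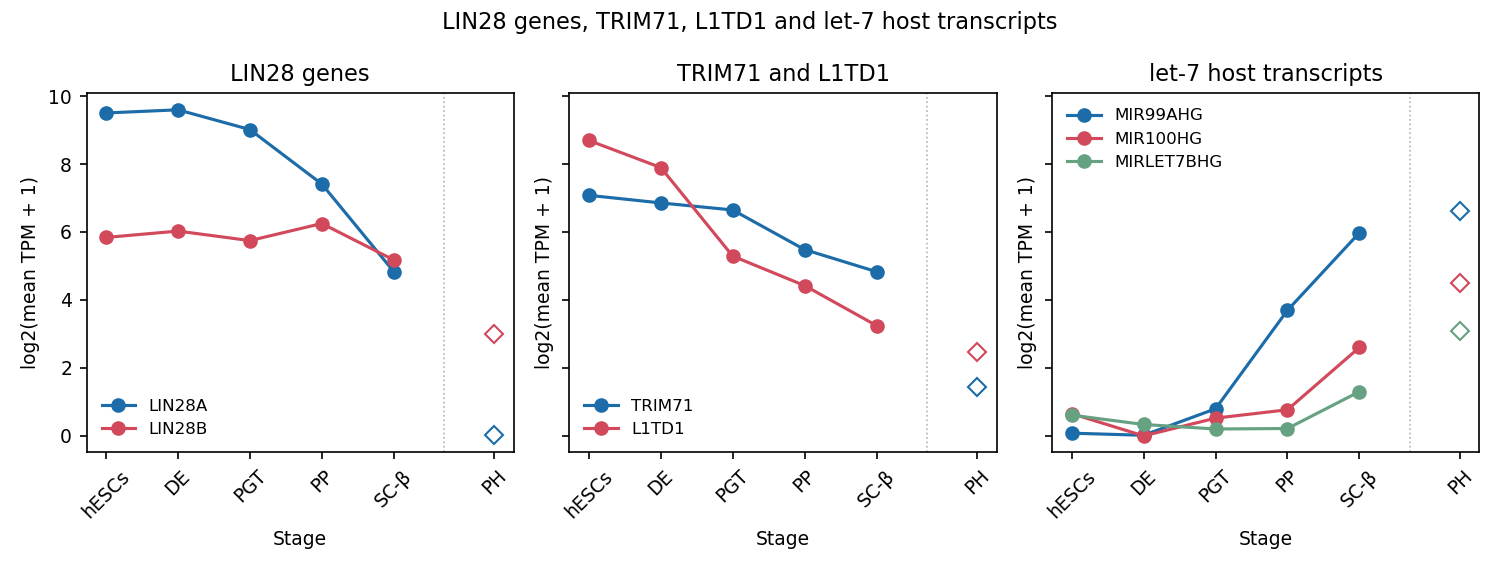
Log2(mean TPM + 1) by stage for the LIN28 genes (left), TRIM71 and L1TD1 (middle) and 3 host transcripts of let-7 hairpins (right); circles joined by lines are the ordered stages and diamonds are PH. The left and middle panels are lowest in PH, where the hosts are highest, with MIR99AHG at 97.6 TPM.

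Other let-7 targets did not follow 1 course. Of 19 known targets outside the 7 genes, 16 held the 7-base match in their 3′ UTR, beside 9.77% of protein-coding genes. As the list was of known targets, a high count follows from how it was chosen. In SC-β organoids 8 of the 19 were at least 2-fold above hESCs and 2 below, beside 42.4% and 7.08% of all names, with a median log2 ratio of 0.44 beside 0.83. The share of higher targets was thus near the background. ACVR1C, an activin-type receptor (2.35), and GDF6, a BMP-family ligand (2.18), were highest, and NR6A1 (-1.41) and ARID3B (-1.32), both DNA-binding proteins of early development, were lowest. In PH 17 reached 1 TPM in either stage, of which 1 was higher and 4 lower, beside 27.3% and 18.9% of all names, with a median of -0.08 beside 0.28. The lowest there were CDC25A, a cell cycle phosphatase (-3.06), and NR6A1 (-2.60), and the highest were TGFBR1, a TGF-β receptor (1.48), and PLAGL2, a zinc finger factor (0.85).

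IGF2, the messenger RNA that the IGF2BP proteins are named for, and its neighbour H19 ranged far more widely than the IGF2BP genes. IGF2, a fetal growth factor, had mean TPM of 0.206 (hESCs), 0.630 (DE), 2.73 (PGT), 21.2 (PP), 28.6 (SC-β organoids) and 5.17 (PH). H19, the noncoding RNA imprinted opposite to IGF2, was at 0 in the hESC column and at 1.01 (DE), 63.4 (PGT), 789.7 (PP), 987 (SC-β organoids) and 98.6 TPM (PH). Of the 8 genes of the IGF axis, 6 were at least 2-fold higher and none lower in SC-β organoids than in hESCs, beside 42.4% and 7.08% of all names, with a median log2 ratio of 3.13 beside 0.83. IGFBP5, a secreted IGF-binding protein, had a ratio of 5.81 there, and IGFBP2 (-0.16) and the receptor gene IGF2R (0.93) were lowest. Of 8 RNA-binding and methylation proteins known to act with IGF2BP proteins, none was 2-fold apart in SC-β organoids, beside the same shares of all names, and their median log2 ratio was 0.03. There PABPC1, the poly(A)-binding protein (0.59), and ELAVL1 (0.57), which stabilises AU-rich messenger RNAs, were highest. YBX1, a cold shock domain protein (-0.76), and METTL3, the RNA methyltransferase (-0.34), were lowest. In PH, 2 of the 8, PABPC1 (-1.83) and YBX1 (-1.57), were more than 2-fold below hESCs, beside 18.9% of all names, so near the background.

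Of 8 genes for other HMG-box and nucleosome-binding HMG proteins, none was 2-fold higher than hESCs in SC-β organoids and 1, HMGB3, was lower (192 against 74.6 TPM, log2 ratio -1.35), beside 42.4% higher and 7.08% lower of all names. HMGN2 (0.50) and HMGN5 (0.35) had the highest ratios there, and HMGN3 (-0.25) the lowest after HMGB3. In PH 3 were lower, beside 18.9% of all names, with HMGB3 (-1.63) and HMGN5 (-1.50) lowest and HMGN4 (0.13) and HMGN2 (0.01) highest. None of the 8 had a let-7 seed match in its 3′ UTR, and a match is uncommon at large, in 9.77% of protein-coding genes with a 3′ UTR.

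Marker lists for the cell types of the series were set beside these results. The summed TPM of 6 pluripotency markers was 2298 (hESCs), 926 (DE), 192 (PGT), 158 (PP), 68.7 (SC-β organoids) and 132 (PH). In PP and PH this sum came mostly from SOX2 (68.2 and 108.7 TPM) and DPPA4 (77.2 and 22.0 TPM), while POU5F1, NANOG and TDGF1 were below 1 TPM in both. In PGT, LIN28A had a log2 ratio to hESCs of -0.49. There, 5 of the 6 pluripotency markers were at least 2-fold below hESCs, beside 10% of all names. The other one, ZFP42, was at -0.50. The 6 endoderm markers, such as SOX17 and FOXA2, summed to 7.77 TPM (hESCs), 251 (DE), 221 (PGT), 61.9 (PP), 53.1 (SC-β organoids) and 4.49 (PH), where SOX17 was listed at 0. The 6 pancreatic markers summed to 244 TPM (PP), 3903 (SC-β organoids) and 105 (PH). In PP and PH this sum came mostly from CHGA (215 and 70.0 TPM). In SC-β organoids it came mostly from GCG (2793 TPM) and CHGA (805 TPM), with INS at 298 TPM. PDX1, one of the pancreatic markers, was low throughout, at 3.17 TPM (PP), 1.57 (SC-β organoids) and 0.0173 (PH). The paper also stained PP cells for PDX1 protein, which is another measure than RNA. The 8 mesenchymal markers, such as the collagen gene COL3A1 and TWIST1, summed to between 36.6 TPM (PGT) and 85.7 TPM (hESCs) in the first 3 stages, to 181 in PP, 1770 in SC-β organoids and 934 in PH. All 8 were at least 2-fold above PP in SC-β organoids, the stage where HMGA2 was highest, and 7 of 8 were so in PH, where HMGA2 was lowest, beside 20.7% and 11.5% of all names. The 8 neural markers summed to between 33.3 and 183 TPM in the ordered stages and to 649 TPM in PH. Of 8 proliferation markers, the number at least 2-fold below hESCs was 1 (DE), 6 (PGT), 1 (PP), 1 (SC-β organoids) and 5 (PH), beside 5.55%, 10%, 9.63%, 7.08% and 18.9% of all names. The part of other cell types or of growth rate in the levels of the 7 genes was not tested.

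The genes whose course was most like that of each member were ranked by Pearson's r of log2(TPM + 1) over the 6 stage means, among 12022 names at 10 TPM or more in some stage. With 6 points, each stage sharing one TPM total, high values are common, so r is given as a description only. LIN28A was closest to DDOST (r = 0.997), ARPC3 and TSR3, whose levels covered a far narrower range, such as 164 TPM in hESCs and 75.1 TPM in PH for DDOST. LIN28B was closest to MYO5C, ADI1 and NTAN1 (r = 0.999 for MYO5C). CEP295 (0.993) and PPIL4 (0.992) were among the names closest to IGF2BP1. IGF2BP2 was closest to RBM26 (0.994), ZSCAN5A and SUZ12P1, and IGF2BP3 to TMEM179B (0.999), MANBAL and ACSS3. HMGA1 was closest to LTA4H (0.998), its own copy HMGA1P3 and GYLTL1B. HMGA2 was closest to SNX1 (0.988), GNAI1 and TEX30, and had the fewest names at r of 0.95 or more, 18 against 240 for LIN28A.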

How the data were processed

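RNA-seq was described for 12 samples, 2 at each of 6 stages, out of 148 samples in the labels; the other assays are not analysed here. Per the methods and labels, the authors sequenced paired-end reads of 50 bp, aligned them to hg38 with HISAT2 (version 2.2.0) and computed TPM with StringTie (version 2.1.6); the gene annotation is not given in the sources used here. The methods name ribosomal RNA removal and the labels a poly(A) kit. The deposited values are TPM averaged by the authors over the samples of a stage, so no sample can be examined alone and depth and its precision are unknown. No value column was left unmapped.

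Entries that share a name were summed (231 of 49085 names, from 50451 entries). Ratios were log2 after adding 1 TPM, with 2-fold as threshold and names at 1 TPM or more in either stage as background. No test was run. Sequences came from RefSeq and GENCODE. The named genes were the 7 members, in each list the 2 highest and 2 lowest ratios of the comparison described, the 3 genes most alike to each member (1 of these is not reported here), and copies or overlapping entries; other stages of listed genes, H19 and IGF2, single markers and host transcripts were named after their values were seen. The members and lists were chosen with earlier results of these data known. The alternatives were 0.1 TPM added, median-ratio rescaling, totals without the 100 most abundant names or without mitochondrial genes, a 4-fold threshold, the highest entry of a repeated name, no filter, and the 8-base match. Calculations were tested on simulated data. Python 3.11.15, numpy 2.4.6, pandas 2.3.3, scipy 1.17.1 and matplotlib 3.10.9 were used.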

Additional observations from a re-analysis of the deposited data

How the results depend on the processing

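No paired analysis was possible because the table holds 1 mean per stage, and for the same reason no sample could be left out in turn. Of 378 log2 ratios under alternatives, 350 kept their direction and their side of the threshold. Another 11 changed sign while under 2-fold, 13 went under the threshold, 4 passed it and 0 reversed. Some of these outcomes were fixed in advance. Taking the highest entry (63 ratios) could change no member, and the 4-fold threshold reuses the same ratios and could change no direction. Median-ratio rescaling left 52 ratios the same, and leaving out the 100 most abundant names left 55. Adding 0.1 TPM, leaving out mitochondrial genes and taking the highest entry for a repeated name (each member has 1 entry) changed none of the members' counts.

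Median-ratio rescaling lowers the median of all names against hESCs by 0.37 (DE), 0.27 (PGT), 0.20 (PP) and 0.36 (SC-β organoids) on the log2 scale, by its construction. With it, 1 member in place of 0 was lower in PGT than in hESCs (HMGA1, -1.22) and 1 in place of 2 was higher in SC-β organoids, as IGF2BP2 went to 0.54. Without the 100 most abundant names 1 was likewise higher in SC-β organoids, with IGF2BP2 at 0.92. LIN28B in SC-β organoids against hESCs (-1.17, rescaling) and HMGA1 in SC-β organoids against PP (-1.23 and -1.22) passed 2-fold, and IGF2BP1 in PH against PP went under it (-0.84 and -0.87). The sign turned for IGF2BP2 in PH against PP (0.07 and 0.05) and, with rescaling, for LIN28A (-0.39), LIN28B (-0.29) and HMGA2 (-0.38) in DE against hESCs, for LIN28A and HMGA2 also without the 100 most abundant names (both -0.08), and under both settings for IGF2BP1 and IGF2BP2 in PP against PGT (0.01 to 0.07). At 4-fold, 0 members were higher and 1 lower in PP than in hESCs, and 1 was higher in SC-β organoids than in hESCs. Also at 4-fold, 0 were higher and 0 lower in PP than in PGT. Against PP, 1 was lower in SC-β organoids and 3 were lower in PH. The share of all names was not computed at 4-fold or under another scaling. These member counts therefore have no background beside them. With no filter on low values every background share moved. Depth is unknown, which leaves the LIN28A value in PH and the host transcripts below 1 TPM without a known precision.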
